A study of Mus musculus with 12 samples.

Results

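The genes described are 10 members of the Hoxa and Hoxb clusters, of 39017 genes counted, in sorted mouse bone marrow progenitors. They are Hoxa3, Hoxa5, Hoxa6, Hoxa7, Hoxa9, Hoxa10, Hoxb2, Hoxb3, Hoxb4 and Hoxb5, chosen by name. All 10 passed the filter on low counts and were tested. RNA-seq was run on 12 libraries in 4 groups of 3, from Lin- Sca1+ cKit+ (LSK) cells, a bone marrow fraction rich in blood stem cells and early multipotent progenitors. The mice were of mixed C57BL/6J; Sv/129 background, and every group received poly(I:C) at 2 µg per g body weight. Libraries labelled NICD_TCFKO came from R26 N1IC lox/+ Tcf7 lox/lox Mx1Cre mice. Those labelled NOTCHWT_TCFKO came from Tcf7 lox/lox Mx1Cre mice. Those labelled NICD_TCFWT came from R26 N1IC lox/+ Mx1Cre mice. Those labelled NOTCHWT_TCFWT came from wild type mice given a control injection. N1IC is the active intracellular part of Notch1, here in the Rosa26 locus, and Tcf7 encodes the transcription factor TCF1. Mx1Cre is a recombinase driven by the interferon-inducible Mx1 promoter, which poly(I:C) turns on in blood cells and in other tissues, so that recombination is not limited to LSK cells. The sort of both groups labelled NICD also required CD45.2 and eGFP, whereas the sort of both groups labelled NOTCHWT did not. The ages of the mice are not given, and the labels do not say whether the replicates of a group are separate mice.

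Hox genes encode homeodomain transcription factors that lie in clusters and set position along the body axis in the embryo. In blood, genes from the middle and the 5′ side of the Hoxa cluster and several Hoxb genes are active in stem cells and early progenitors and are switched off as cells mature. The trithorax protein KMT2A (MLL) and its partners keep them on, Polycomb complexes keep them off, and the HOX proteins bind DNA together with MEIS and PBX cofactors.

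Tcf7 and the readouts of Notch activity went against some of the labels, so groups are named by label throughout. Tcf7 averaged 603 ± 300 CPM (counts scaled to library size) in the libraries labelled NICD_TCFKO, 1.28 ± 1.31 CPM in NOTCHWT_TCFKO, 5.50 ± 1.11 CPM in NICD_TCFWT and 14.8 ± 4.54 CPM in NOTCHWT_TCFWT (SD, n = 3 each). Dtx1, a Notch target, averaged 121 ± 51.3, 0.208 ± 0.189, 0.124 ± 0.0602 and 85.4 ± 5.67 CPM in the same order of groups, so it was near 0 in the libraries labelled NICD_TCFWT and high in those labelled NOTCHWT_TCFWT. The sample titles add run names in brackets, which read RNIC-Tg for the libraries labelled NICD_TCFKO and RNIC-CTRL for those labelled NICD_TCFWT. They read Tcf7-Tg for those labelled NOTCHWT_TCFKO and RAD for those labelled NOTCHWT_TCFWT. Xist was between 3547 and 4603 CPM in the libraries labelled NOTCHWT_TCFWT, whereas the Y-linked gene Ddx3y was at 0 there and between 57.2 and 126 CPM in 1 or 2 libraries of each other group. NOTCHWT_TCFKO replicate 1 held both, with 2156 CPM of Xist and 57.2 CPM of Ddx3y, unlike every other library. Kit averaged 644 to 812 CPM across the groups and Ly6a, which encodes Sca1, averaged 37.5 to 123 CPM, so RNA of both sort markers was present in every group. Ly6a was lower in NOTCHWT_TCFKO than in NOTCHWT_TCFWT (log2 -1.71 ± 0.25, SE) and higher in NICD_TCFKO than in NOTCHWT_TCFKO (1.44 ± 0.25). The adjusted p values were 0.00104 and 0.00373 in that order (edgeR quasi-likelihood test). No other pair of groups passed for Ly6a, and none did for Kit. Cd34, which is not part of that sort, averaged 586 to 1150 CPM. Library totals ranged from 30453271 to 43790674 counts.

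The Hoxa members lie on mouse chromosome 6 on the minus strand, between 52169062 and 52240854, and the Hoxb members on chromosome 11 on the plus strand, between 96303336 and 96354012 (mm10). Promoter stretches are shown for Hoxa3, Hoxa9 and Hoxa10, 3 of the 5 members with calls, and for Hoxb4, which had none. Each holds the 250 bases before a RefSeq start site and the first transcribed base, read 5′ to 3′ on the gene's strand from RefSeq windows of GRCm38.p6, the same build as mm10. Capitals mark the first transcribed base at the end of each stretch and any motif match.
Hoxa3, chr6:52213067-52213317, minus strand: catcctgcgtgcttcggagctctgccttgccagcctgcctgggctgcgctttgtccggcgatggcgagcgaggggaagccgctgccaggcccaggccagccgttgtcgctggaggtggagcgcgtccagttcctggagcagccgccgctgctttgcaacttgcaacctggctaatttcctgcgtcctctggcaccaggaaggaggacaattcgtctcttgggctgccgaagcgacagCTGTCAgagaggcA
Hoxa9, chr6:52227370-52227620, minus strand: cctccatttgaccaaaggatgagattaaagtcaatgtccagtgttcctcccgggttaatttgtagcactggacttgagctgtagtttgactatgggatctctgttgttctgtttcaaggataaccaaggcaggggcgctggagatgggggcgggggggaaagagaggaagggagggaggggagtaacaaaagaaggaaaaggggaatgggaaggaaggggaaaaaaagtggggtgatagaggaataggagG
Hoxa10, chr6:52234939-52235189, minus strand: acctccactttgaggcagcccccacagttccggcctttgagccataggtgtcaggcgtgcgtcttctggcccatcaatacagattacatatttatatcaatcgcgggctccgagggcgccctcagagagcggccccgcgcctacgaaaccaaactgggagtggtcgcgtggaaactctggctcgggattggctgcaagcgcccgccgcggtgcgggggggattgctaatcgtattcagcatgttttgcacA
Hoxa10 second start, chr6:52240854-52241104, minus strand: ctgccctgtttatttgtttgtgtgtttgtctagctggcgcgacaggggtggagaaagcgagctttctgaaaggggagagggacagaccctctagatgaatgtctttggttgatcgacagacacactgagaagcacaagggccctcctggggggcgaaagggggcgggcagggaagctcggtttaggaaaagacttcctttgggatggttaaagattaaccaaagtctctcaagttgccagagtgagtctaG
Hoxb4, chr11:96318017-96318267, plus strand: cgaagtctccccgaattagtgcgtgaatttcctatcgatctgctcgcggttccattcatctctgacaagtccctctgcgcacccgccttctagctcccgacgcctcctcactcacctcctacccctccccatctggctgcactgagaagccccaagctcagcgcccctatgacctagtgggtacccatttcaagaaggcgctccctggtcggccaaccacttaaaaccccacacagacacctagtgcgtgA
RefSeq windows were held for 7 of the 10 members, 8 windows in all, with 250 bases before and 50 after the start site. Both strands were searched for the core of the Notch partner RBPJ (GTGGGAA), 2 TCF/LEF cores (CTTTGAA and CTTTGAT) and the MEIS core (TGACAG), where the TCF/LEF cores differ only in their last letter and no match overlapped another. Of the 8 windows, 1 held a match, that of Hoxa3, with the MEIS core on the opposite strand at position -13 from the start site (the capitals within the Hoxa3 stretch) and the RBPJ core at position 38, past the printed stretch. Among 32851 windows of all genes, 6.38% held the RBPJ core, 5.14% and 3.73% the TCF/LEF cores in the order given, and 19.2% the MEIS core. These matches describe letters and not bound sites.

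The libraries labelled NICD_TCFWT had the highest mean level of 9 members, and those labelled NOTCHWT_TCFWT the lowest mean of 8. All 6 Hoxa members together with Hoxb3 and Hoxb5 shared 1 order of group means, with NICD_TCFWT above NOTCHWT_TCFKO, then NICD_TCFKO, then NOTCHWT_TCFWT. Hoxb4 and Hoxb2 had other orders. Between neighbours in these orders, none of the 30 differences passed the test, and the lowest adjusted p among them was 0.0593 (edgeR quasi-likelihood test, Benjamini-Hochberg adjustment over all genes tested), so the calls below come from groups further apart. In bulk RNA, fewer cells that express a Hox gene and less Hox RNA per cell cannot be told apart. The 10 members summed to between 130 and 214 CPM in the libraries labelled NICD_TCFKO, between 179 and 283 CPM in NOTCHWT_TCFKO, between 255 and 301 CPM in NICD_TCFWT and between 127 and 196 CPM in NOTCHWT_TCFWT.

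**Figure D1:**
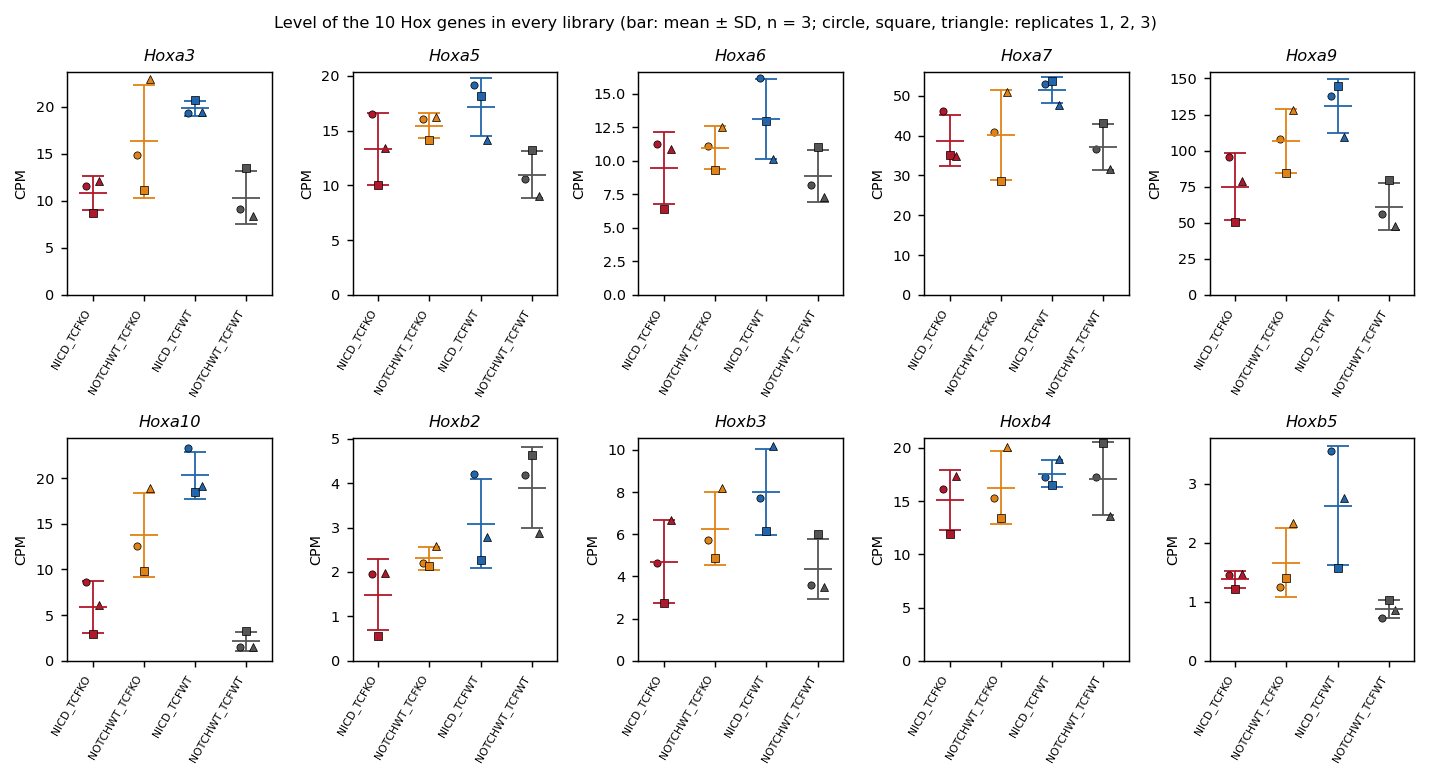
CPM (linear axis) of each of the 10 Hox genes in every library, by labelled group, with the mean and SD of 3 libraries. Hoxa10 averaged 20.3 CPM where the label is NICD_TCFWT and 2.13 CPM in those labelled NOTCHWT_TCFWT, whereas the Hoxb4 means of the 4 groups lie between 15.1 and 17.6 CPM.

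Levels per kilobase of exon set the members against each other. The exon lengths include bases shared with other genes. Hoxa9, Hoxa7 and Hoxa6 led in all 4 groups, with Hoxa9 at 13.5 ± 4.12 CPM per kb in the libraries labelled NICD_TCFKO, 19.1 ± 3.94 in NOTCHWT_TCFKO, 23.4 ± 3.32 in NICD_TCFWT and 10.97 ± 2.96 CPM per kb in NOTCHWT_TCFWT (SD, n = 3 each). The libraries of these 3 genes overlapped between neighbours in rank in 3 groups. In NICD_TCFWT, all 3 libraries of Hoxa9 lay above those of Hoxa7, which followed at 17.9 ± 1.15 CPM per kb. Hoxa5 and Hoxb4 came next, between 5.84 and 9.13 CPM per kb on average, and Hoxa3 and Hoxb3 averaged between 1.02 and 3.30 CPM per kb. Hoxb5 and Hoxb2 took the last 2 ranks in every group except NOTCHWT_TCFWT, where Hoxb2 ranked 7 and Hoxa10 ranked 9. Hoxa10 had a mean of 6.20 CPM per kb and rank 6 in the libraries labelled NICD_TCFWT, against 0.653 CPM per kb and rank 9 in those labelled NOTCHWT_TCFWT. The 6 Hoxa members held between 82.6% and 91.0% of the counts of all 10 members in a library, and the 10 together had between 5136 and 11666 counts per library.

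**Figure D2:**
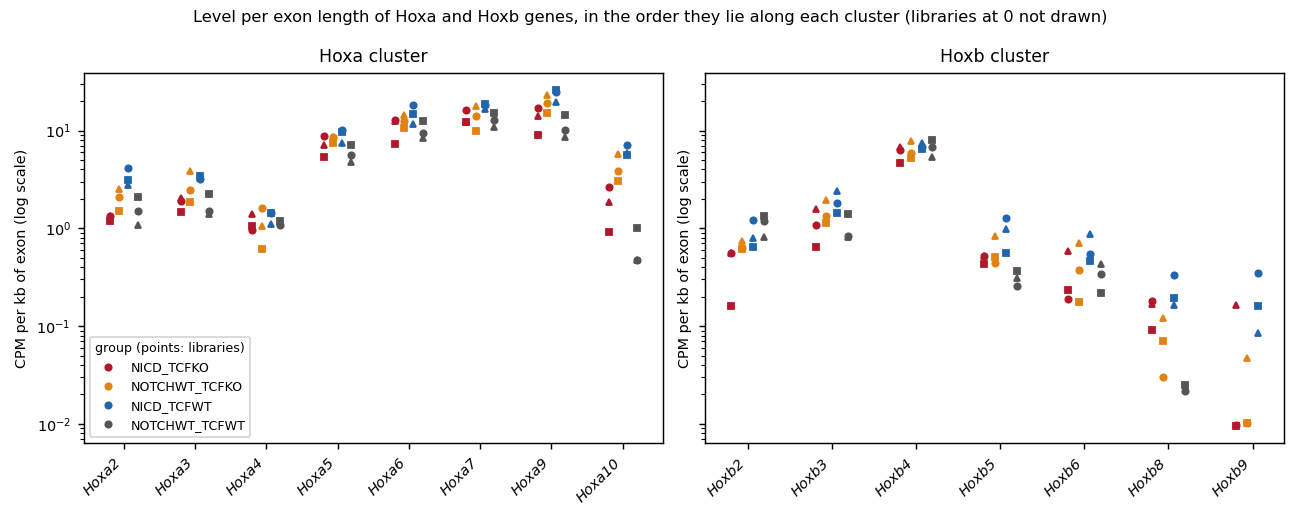
CPM per kb of exon (log axis) of 8 Hoxa and 7 Hoxb genes in every library, in chromosomal order along its cluster, with libraries at 0 not drawn. In the Hoxa cluster Hoxa6, Hoxa7 and Hoxa9 stand highest and Hoxa10 below them, and in the Hoxb cluster Hoxb4 stands above its neighbours, at 5.89 to 6.85 CPM per kb on average.

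The comparison of the libraries labelled NICD_TCFWT with those labelled NOTCHWT_TCFWT asks, by its labels, what N1IC does with Tcf7 intact. These groups also differ in Mx1Cre, in the sort by CD45.2 and eGFP and in Ddx3y, which cannot be told apart from N1IC here. Of the 10 members, 5 were higher and none was lower, whereas 10.6% of the 16024 genes tested were higher and 9.75% lower. The 5 were Hoxa3, Hoxa5, Hoxa9, Hoxa10 and Hoxb5. The 3 libraries of each group did not overlap for 7 of the 10 members, against 44.2% of all genes tested. The median log2 fold change was 0.76 over the members and 0.00 over all genes tested. Of the lower direction, none of the members passed at an unadjusted p under 0.05 either, and DESeq2 and limma-voom also called 0.

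Hoxa9 is the most abundant member by counts and is known to drive self-renewal of progenitors and, with MEIS1, leukaemia in mice. It had 95.8, 50.3 and 79.1 CPM in the libraries labelled NICD_TCFKO and 108, 84.2 and 128 CPM in NOTCHWT_TCFKO. It had 138, 145 and 110 CPM in the libraries labelled NICD_TCFWT, against 56.2, 79.7 and 47.8 CPM in NOTCHWT_TCFWT. All 3 libraries labelled NICD_TCFWT lay above all 3 labelled NOTCHWT_TCFWT and above all 3 labelled NICD_TCFKO. The log2 fold change of NICD_TCFWT over NOTCHWT_TCFWT was 1.10 ± 0.26 (SE; adjusted p = 0.0157). The call is lost without NOTCHWT_TCFWT replicate 1, NOTCHWT_TCFWT replicate 3 or NICD_TCFWT replicate 2, with adjusted p = 0.0593, 0.0592 and 0.0521 in that order.

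Hoxa10, the 5′ neighbour of Hoxa9, is a regulator of progenitor expansion and myeloid differentiation and had the largest fold change of the members in the comparison of NICD_TCFWT with NOTCHWT_TCFWT. It had 8.60, 2.98 and 6.05 CPM in the libraries labelled NICD_TCFKO and 12.6, 9.88 and 18.9 CPM in NOTCHWT_TCFKO. The libraries labelled NICD_TCFWT had 23.3, 18.5 and 19.1 CPM, against 1.56, 3.31 and 1.54 CPM in NOTCHWT_TCFWT. The libraries labelled NOTCHWT_TCFWT were the lowest group, and 1 library of the group above them, NICD_TCFKO replicate 2, fell within their range. The fold of NICD_TCFWT over NOTCHWT_TCFWT was 9.53 (log2 3.25 ± 0.44, SE; adjusted p = 0.00077). It passed the test under every alternative tried, with an adjusted p of 0.00581 or lower.

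Hoxa7, which is often active together with Hoxa9 in leukaemia driven by MLL fusions, moved less. Its levels were 46.3, 35.2 and 34.8 CPM in the libraries labelled NICD_TCFKO and 40.8, 28.6 and 51.0 CPM in NOTCHWT_TCFKO. Its libraries labelled NICD_TCFWT had 52.9, 53.7 and 47.6 CPM, against 36.8, 43.2 and 31.6 CPM in NOTCHWT_TCFWT. These last 2 groups did not overlap, but the log2 fold change of 0.47 ± 0.20 (SE) did not pass the test (adjusted p = 0.120).

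Hoxa3 is needed in the mouse embryo for the thymus and parathyroid glands. It had 11.6, 8.76 and 12.2 CPM in the libraries labelled NICD_TCFKO and 14.9, 11.2 and 23.0 CPM in NOTCHWT_TCFKO. In NICD_TCFWT it had 19.4, 20.8 and 19.5 CPM, against 9.11, 13.6 and 8.38 CPM in NOTCHWT_TCFWT. The libraries labelled NICD_TCFWT lay close together and above every library labelled NICD_TCFKO or NOTCHWT_TCFWT, whereas those labelled NOTCHWT_TCFKO spread across both ranges. The log2 fold change of NICD_TCFWT over NOTCHWT_TCFWT was 0.94 ± 0.26 (SE; adjusted p = 0.0266). The call was lost in 7 of 20 alternatives, with adjusted p up to 0.0969: without NICD_TCFWT replicate 1, 2 or 3, without NOTCHWT_TCFWT replicate 1 or 3, under the replicate block and with the Ddx3y covariate.

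Hoxa5, a regulator of lung and axial skeleton patterning in mice, had 16.5, 9.999 and 13.4 CPM in the libraries labelled NICD_TCFKO and 16.01, 14.1 and 16.2 CPM in NOTCHWT_TCFKO. It had 19.1, 18.2 and 14.1 CPM in NICD_TCFWT, against 10.6, 13.3 and 9.03 CPM in NOTCHWT_TCFWT. The last 2 groups were separated by less than 1 CPM at their nearest libraries, and the log2 fold change was 0.65 ± 0.20 (SE; adjusted p = 0.0449). This call held in 9 of 20 alternatives, and the adjusted p reached 0.198 in the others. Hoxa6, which lies between Hoxa5 and Hoxa7, had 11.2, 6.37 and 10.8 CPM in NICD_TCFKO, 11.1, 9.29 and 12.5 CPM in NOTCHWT_TCFKO, 16.1, 12.96 and 10.1 CPM in NICD_TCFWT and 8.16, 11.01 and 7.31 CPM in NOTCHWT_TCFWT. Its groups overlapped in every pair, and none of its 6 comparisons passed the test.

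Hoxb4 expands haematopoietic stem cells in culture when overexpressed. It had 16.1, 11.9 and 17.3 CPM in the libraries labelled NICD_TCFKO, 15.3, 13.4 and 20.1 CPM in NOTCHWT_TCFKO, 17.3, 16.5 and 19.0 CPM in NICD_TCFWT and 17.3, 20.4 and 13.6 CPM in NOTCHWT_TCFWT. The groups overlapped in every pair. The log2 fold change of NICD_TCFWT over NOTCHWT_TCFWT was 0.04, with a 95% interval of -0.39 to 0.47 and an adjusted p of 0.916.

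Hoxb5, whose activity marks long-term stem cells in mice, had 1.45, 1.21 and 1.47 CPM in the libraries labelled NICD_TCFKO and 1.24, 1.41 and 2.33 CPM in NOTCHWT_TCFKO. It had 3.56, 1.57 and 2.76 CPM in NICD_TCFWT, against 0.721, 1.02 and 0.864 CPM in NOTCHWT_TCFWT. Every library labelled NOTCHWT_TCFWT lay below every library of each other group. The fold of NICD_TCFWT over NOTCHWT_TCFWT was 3.02 (log2 1.59 ± 0.36, SE; adjusted p = 0.0107), and it passed the test under every alternative tried.

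Hoxb3, which shares roles with Hoxb4 in progenitor growth in mice, had 4.63, 2.76 and 6.70 CPM in NICD_TCFKO, 5.73, 4.86 and 8.20 CPM in NOTCHWT_TCFKO, 7.74, 6.15 and 10.2 CPM in NICD_TCFWT and 3.58, 6.02 and 3.48 CPM in NOTCHWT_TCFWT. Hoxb2, a hindbrain patterning gene in mice, had 1.95, 0.557 and 1.97 CPM in NICD_TCFKO, 2.19, 2.12 and 2.59 CPM in NOTCHWT_TCFKO, 4.21, 2.26 and 2.79 CPM in NICD_TCFWT and 4.18, 4.63 and 2.87 CPM in NOTCHWT_TCFWT. Neither gene passed the test in any comparison, and Hoxb2 was the only member with its highest mean in the libraries labelled NOTCHWT_TCFWT. Values of both are uncertain, since Hoxb3os, on the opposite strand, shares 52.9% of the exon bases of Hoxb3 and 27.3% of those of Hoxb2, and whether counting used strand is not given in the sources used here. The same limit holds for Hoxa7, Hoxa3 and Hoxb5, which share 20.4%, 18.2% and 3.59% of their exon bases with opposite-strand genes.

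The count of 5 members higher in NICD_TCFWT depended on single libraries. It was 2 without NOTCHWT_TCFWT replicate 1, 2 without NOTCHWT_TCFWT replicate 3, 2 without NICD_TCFWT replicate 2 and 3 without NICD_TCFWT replicate 1. With the level of Ddx3y as a covariate, an alternative chosen after seeing the data, it was 3. Calls over all genes fell too, from 1701 higher to 1103, 1073, 1142 and 1151 without those libraries, in that order. With the Ddx3y covariate 1387 of all genes were higher.

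**Figure D3:**
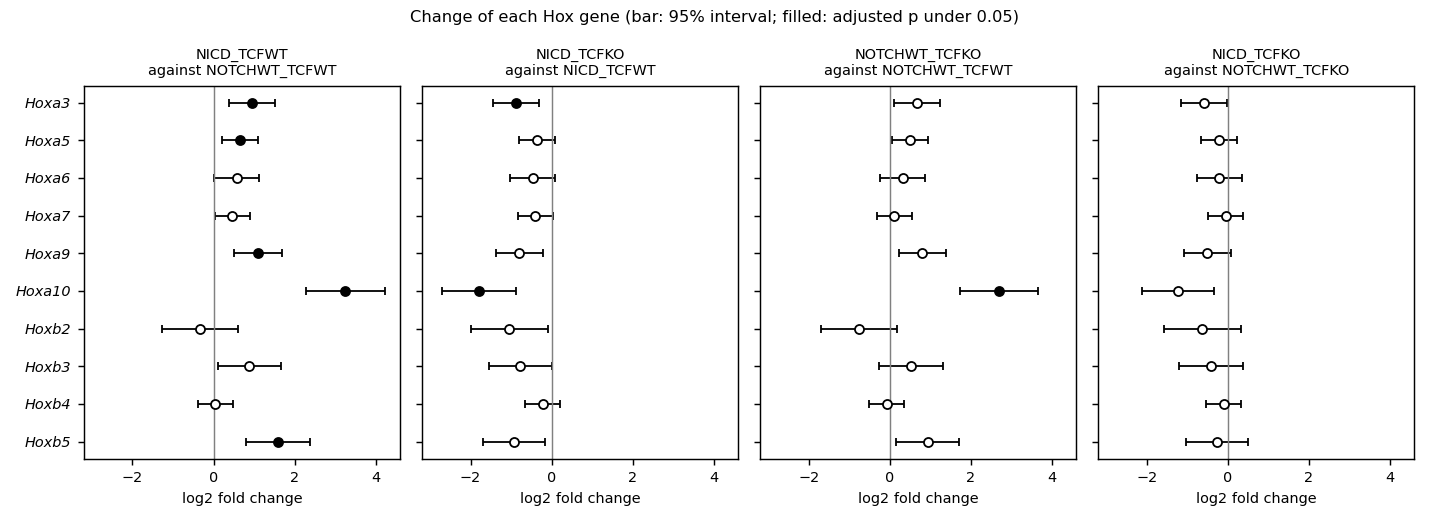
Log2 fold change (bar: 95% interval) of each of the 10 Hox genes in 4 comparisons of labelled groups, with filled points at an adjusted p under 0.05. Hoxa10 is the member with the largest change in each of the 4, from 3.25 for NICD_TCFWT over NOTCHWT_TCFWT to -1.79 for NICD_TCFKO over NICD_TCFWT, and Hoxb4 lies within 0.22 of 0 in all 4.

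The libraries labelled NICD_TCFKO set against those labelled NICD_TCFWT ask, by label, what loss of Tcf7 does in cells with N1IC. All 10 fold changes were negative, and 2 members passed the test as lower, Hoxa10 and Hoxa3, whereas 5.15% of all genes tested were lower and 7.25% higher. Hoxa10 fell by 1.79 ± 0.41 on the log2 scale (SE; adjusted p = 0.0197) and Hoxa3 by 0.88 ± 0.26 (adjusted p = 0.049997, just under the threshold of 0.05). Groups did not overlap for 6 members, against 38% of all genes tested, and the median log2 fold change was -0.79 over the members and 0.00 over all genes tested. Hoxa9, with a log2 fold change of -0.80 ± 0.26 (SE), Hoxb5 with -0.93 ± 0.35 and Hoxb2 with -1.05 ± 0.43 did not pass (adjusted p = 0.0713, 0.107 and 0.135 in that order). No member was higher, whether by edgeR with adjusted or unadjusted p, by DESeq2 or by limma-voom. With the replicate block, the count was 1, since Hoxa3 missed the threshold (adjusted p = 0.0818) and Hoxa10 passed (adjusted p = 0.0406). The count of 2 lower was 0 without NICD_TCFKO replicate 2, NICD_TCFKO replicate 3 or NICD_TCFWT replicate 1, and 1 without NOTCHWT_TCFKO replicate 1, NICD_TCFWT replicate 2, NICD_TCFWT replicate 3, NOTCHWT_TCFWT replicate 1 or NOTCHWT_TCFWT replicate 3. Over all genes tested, 825 were lower, against 335, 408 and 368 without the libraries that gave 0, in that order.

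Between the libraries labelled NOTCHWT_TCFKO and those labelled NOTCHWT_TCFWT, a comparison of Tcf7 loss without N1IC by label, 1 member was higher, Hoxa10, beside 10.8% of all genes tested higher and 10.5% lower. Its fold was 6.47 (log2 2.69 ± 0.43, SE; adjusted p = 0.00173), and all 3 libraries labelled NOTCHWT_TCFKO lay above all 3 labelled NOTCHWT_TCFWT. Hoxa9 missed the threshold with a log2 fold change of 0.80 ± 0.26 (SE; adjusted p = 0.0525), as did Hoxb5 with 0.93 ± 0.36 (adjusted p = 0.0870). Groups did not overlap for 5 members, against 37% of all genes tested, and the median log2 fold change was 0.51 over the members and 0.00 over all genes. Without NOTCHWT_TCFWT replicate 2 or NOTCHWT_TCFKO replicate 2 the count higher was 3, without NICD_TCFKO replicate 1 or NICD_TCFKO replicate 2 it was 2, and DESeq2 called 3 and limma-voom 2. No member was lower by any of these tests or at an unadjusted p under 0.05. This comparison shares its NOTCHWT_TCFWT libraries with that of NICD_TCFWT, so the values of both are not independent. Its groups also differ in Mx1Cre and in Ddx3y, which cannot be told apart from labelled Tcf7 loss here.

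Between the libraries labelled NICD_TCFKO and NOTCHWT_TCFKO, edgeR called 0 members, beside 10.3% of all genes tested higher and 8.06% lower. All 10 fold changes were negative with a median of -0.34, against 0.00 over all genes, and 2 members passed as lower at an unadjusted p under 0.05. Hoxa10 had the largest, at -1.23 ± 0.41 on the log2 scale (SE; adjusted p = 0.0593), and its groups did not overlap, which held for 2 members and for 32.8% of all genes tested. DESeq2 and limma-voom each called 1 member lower, as did edgeR without NICD_TCFKO replicate 1 or NOTCHWT_TCFWT replicate 2.

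Across the diagonal of the design, edgeR called 0 members between NICD_TCFKO and NOTCHWT_TCFWT, beside 4.01% of all genes tested higher and 2.3% lower. Without adjustment, 1 member passed a p of 0.05 in each direction, and the libraries did not overlap for 2 members, against 25.9% of all genes. Hoxa10 had a log2 fold change of 1.47 ± 0.42 (SE; adjusted p = 0.0650) and Hoxb2 of -1.38 ± 0.43 (adjusted p = 0.0882) there. DESeq2 called 1 higher and 1 lower and limma-voom 0, and edgeR called 1 higher without NICD_TCFKO replicate 2 or NOTCHWT_TCFWT replicate 2. Between NOTCHWT_TCFKO and NICD_TCFWT the edgeR test again called 0, beside 1.34% of all genes tested higher and 1.54% lower and 27.8% with groups that did not overlap, with 0 at an unadjusted p under 0.05 and 0 by DESeq2 or limma-voom. The interval for Hoxa9 in that comparison ran from -0.87 to 0.28 on the log2 scale and that for Hoxa10 from -1.44 to 0.32, so these data do not show that the groups have equal levels.

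The interaction asks whether the difference by labelled Tcf7 loss depends on labelled N1IC, and it was tested as the difference between NICD_TCFKO and NICD_TCFWT minus that between NOTCHWT_TCFKO and NOTCHWT_TCFWT. It was negative for all 10 members, with a median of -1.08 on the log2 scale against 0.01 over all genes tested. Of the members 5 passed the test, all as lower, beside 13.5% of all genes tested lower and 13.8% higher. No member passed as positive by edgeR with adjusted or unadjusted p, by DESeq2 or by limma-voom. Hoxa10 had the largest interaction, at -4.48 ± 0.60 (SE; adjusted p = 0.00039), and its component changes, -1.79 and 2.69, each passed the test in opposite directions. Hoxa9 had -1.60 ± 0.37 (SE; adjusted p = 0.00947) and Hoxa3 had -1.54 ± 0.37 (adjusted p = 0.0101). Hoxb3 did not pass, at -1.30 ± 0.50 (adjusted p = 0.0775), and Hoxb4 was at -0.14 with a 95% interval of -0.76 to 0.47. Hoxa5 passed in 8 of 19 alternatives, and with the Ddx3y covariate, where Hoxb5 also missed (adjusted p = 0.0503), the count was 3 in place of 5. The interaction takes in the libraries labelled NOTCHWT_TCFWT, whose lack of Mx1Cre cannot be told apart from it.

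The share of Hoxa10 in the counts of the neighbouring pair Hoxa9 and Hoxa10 does not depend on library scaling. This ratio was chosen after the values were seen. It averaged 6.98 ± 1.33% in the libraries labelled NICD_TCFKO, 11.3 ± 1.38% in NOTCHWT_TCFKO, 13.5 ± 1.94% in NICD_TCFWT and 3.27 ± 0.656% in NOTCHWT_TCFWT (SD, n = 3 each). The groups did not overlap in 5 of the 6 pairs, each with p = 0.1 in a two-sided exact permutation test, the smallest p that 3 libraries against 3 allow (0.12 after Benjamini-Hochberg adjustment over the 6 pairs). The exception was NOTCHWT_TCFKO against NICD_TCFWT, with p = 0.2 in the exact test. The libraries labelled NOTCHWT_TCFWT had the lowest shares of Hoxa10, and no pair could pass a threshold of 0.05 at this number of libraries.

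**Figure D4:**
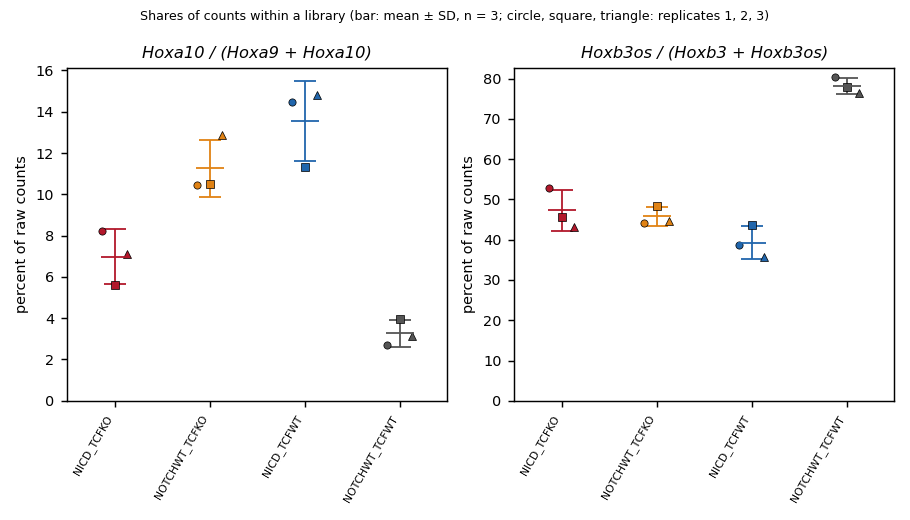
Percent of raw counts within each library held by Hoxa10 in the pair Hoxa9 and Hoxa10 (left) and by Hoxb3os in the pair Hoxb3 and Hoxb3os (right), by labelled group, with the mean and SD of 3 libraries. The libraries labelled NOTCHWT_TCFWT have the lowest Hoxa10 share, 2.70 to 3.98%, and the highest Hoxb3os share, 76.5 to 80.4%.

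Antisense and other non-coding RNAs of the clusters were counted too, and 3 of 13 were tested. Hoxb3os had 5.20, 2.32 and 5.10 CPM in the libraries labelled NICD_TCFKO, 4.54, 4.57 and 6.62 CPM in NOTCHWT_TCFKO, 4.86, 4.76 and 5.65 CPM in NICD_TCFWT and 14.7, 21.2 and 11.3 CPM in NOTCHWT_TCFWT. Every library labelled NOTCHWT_TCFWT lay above every library of each other group. The log2 fold changes against NOTCHWT_TCFWT were -1.90 ± 0.33 for NICD_TCFKO, -1.58 ± 0.32 for NOTCHWT_TCFKO and -1.63 ± 0.32 for NICD_TCFWT (SE; adjusted p = 0.00882, 0.00615 and 0.00589 in that order), comparisons that share the libraries labelled NOTCHWT_TCFWT. Its share of the counts of Hoxb3 and Hoxb3os was 78.3 ± 1.98% in the libraries labelled NOTCHWT_TCFWT and averaged between 39.3 and 47.3% in the other groups. As the pair shares exon bases on opposite strands, how many of these reads belong to which gene is uncertain. Hoxaas3 and Hoxb5os averaged at most 1.46 CPM in any group and had no call.

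Of 29 other Hox genes listed, 28 were matched in the table, 18 had at least 1 count and 7 were tested, and the remaining one, Hoxd4, was not analysed here. A count of 0 in a library allows a level of up to 0.0992 CPM at the lowest depth, for counting error only. Hoxa2, a hindbrain and neural crest gene in mice next to Hoxa3, averaged 2.30 ± 0.146 CPM in the libraries labelled NICD_TCFKO, 3.61 ± 0.893 in NOTCHWT_TCFKO, 5.94 ± 1.29 in NICD_TCFWT and 2.78 ± 0.905 CPM in NOTCHWT_TCFWT (SD, n = 3 each). It was higher in NICD_TCFWT than in NOTCHWT_TCFWT (log2 1.10 ± 0.29, SE; adjusted p = 0.0207) and lower in NICD_TCFKO than in NICD_TCFWT (-1.37 ± 0.29; adjusted p = 0.0123). Hoxb8, which immortalises mouse progenitors when overexpressed, averaged 0.388 CPM in NICD_TCFKO, 0.193 CPM in NOTCHWT_TCFKO, 0.605 CPM in NICD_TCFWT and 0.0413 CPM in NOTCHWT_TCFWT, and it was higher in NICD_TCFWT than in NOTCHWT_TCFWT (adjusted p = 0.00677). It was also higher in NICD_TCFKO than in NOTCHWT_TCFWT (adjusted p = 0.0381). Hoxb9 had 57 counts in the 3 libraries labelled NICD_TCFWT and 0 in those labelled NOTCHWT_TCFWT, so its mean was at least 5.12-fold higher in NICD_TCFWT, taking 3 counts in the shallowest NOTCHWT_TCFWT library as the floor. Without NICD_TCFWT replicate 1 that bound was 3.17-fold. Hoxa4 and Hoxb6 averaged at most 2.14 CPM and Hoxc6 at most 0.621 CPM in any group, and they had no call.

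By a fixed measure of likeness, the root mean square difference of centred log2 CPM over the 12 libraries, the 5 tested genes closest to Hoxa9 were Ppfibp2 (0.127), Lrfn1 (0.170), Fam234a (0.174), Btc (0.174) and Tbxas1 (0.177). The closest member was Hoxa3, at 0.182 and rank 8 among all genes tested, and Hoxa10 was at 0.870. For Hoxb4 the closest were Fam214a (0.0709), Prdm9 (0.0909), Ssh3 (0.0950), Sft2d2 (0.0987) and Zbed5 (0.104), and the closest member was Hoxa7, at 0.226. These are descriptions over libraries that share groups.

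The cofactors that HOX proteins bind with did not all follow them. Of 9 TALE genes 7 were tested. Meis1, the partner of HOXA9, averaged 124 ± 46.7 CPM in the libraries labelled NICD_TCFKO, 220 ± 47.0 in NOTCHWT_TCFKO, 233 ± 18.7 in NICD_TCFWT and 170 ± 24.1 CPM in NOTCHWT_TCFWT (SD, n = 3 each). It was lower in NICD_TCFKO than in NICD_TCFWT (log2 -0.91 ± 0.25, SE; adjusted p = 0.0427) and than in NOTCHWT_TCFKO (-0.83 ± 0.25; adjusted p = 0.0463). Pbx3 averaged 7.01 ± 2.37, 12.2 ± 1.89, 9.996 ± 0.265 and 18.5 ± 1.93 CPM in the same order of groups and was lower in NICD_TCFWT than in NOTCHWT_TCFWT (-0.89 ± 0.21; adjusted p = 0.0149), where 4 of the Hoxa members were higher.

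Of 23 MLL components and other activators 20 were tested, and in NICD_TCFWT against NOTCHWT_TCFWT 2 were lower and 0 were higher by edgeR, with 1 higher at an unadjusted p under 0.05, 1 by DESeq2 and 0 by limma-voom. Over all genes tested 9.75% were lower and 10.6% higher in that comparison, so the share of the list that was lower, 2 of 20, was near the background. Psip1, a chromatin tether of the MLL complex, was lower by 0.52 ± 0.06 on the log2 scale there (SE; adjusted p = 0.000377) and higher in NICD_TCFKO than in NICD_TCFWT (0.56 ± 0.06; adjusted p = 0.000509). By the interaction, where this list had the most calls, 6 were higher and 1 lower, beside 13.8% and 13.5% of all genes tested: Psip1 (0.89), the methyltransferase Dot1l (0.43), Kdm6b (0.72), Men1 (0.40) and Rbbp5 (0.29) were among those higher on the log2 scale and Mllt3 (-0.93) was the one lower. Kmt2a had no call in any comparison, and Men1, its partner menin, was higher in NICD_TCFKO than in NOTCHWT_TCFKO (0.39 ± 0.08; adjusted p = 0.00789). All 20 Polycomb genes were tested, of which 7 were higher and 1 was lower in NICD_TCFKO than in NICD_TCFWT, beside 7.25% of all genes tested higher and 5.15% lower. Cbx7, a subunit of the repressive complex PRC1, was the one lower (-1.07 ± 0.22, SE; adjusted p = 0.0103), and it was higher in NICD_TCFWT than in NOTCHWT_TCFWT (1.67 ± 0.22; adjusted p = 0.000609). By the interaction 8 were higher and 2 lower, beside 13.8% and 13.5% of all genes tested, led by Phc2 (1.21), Cbx7 (-2.64), Cbx2 (1.96), Ezh2 (0.67), Jarid2 (0.58) and Rnf2 (0.41) on the log2 scale. Ezh2, the catalytic subunit of PRC2, was higher in NICD_TCFKO than in NICD_TCFWT (0.51 ± 0.09; adjusted p = 0.00635), as was Bmi1 (0.25 ± 0.07; adjusted p = 0.0395).

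Of 15 genes known as targets of HOXA9 and MEIS1, 14 were tested, and 5 were higher and 3 lower in NICD_TCFWT than in NOTCHWT_TCFWT, beside 10.6% of all genes tested higher and 9.75% lower. Flt3, a receptor of early progenitors, had 127, 99.4 and 131 CPM in the libraries labelled NICD_TCFKO, 400, 280 and 656 CPM in NOTCHWT_TCFKO, 570, 559 and 515 CPM in NICD_TCFWT and 48.6, 73.9 and 42.3 CPM in NOTCHWT_TCFWT. The groups stood in the same order of means as those of Hoxa9 and did not overlap between NICD_TCFWT and either NICD_TCFKO or NOTCHWT_TCFWT. Bcl2, a survival gene, and Lmo2, a stem cell transcription cofactor, were higher in NICD_TCFWT than in NOTCHWT_TCFWT by 2.57 ± 0.19 and 1.59 ± 0.26 on the log2 scale (SE; adjusted p = 1.46e-05 and 0.0023). Ccl3, a chemokine, was higher by 4.52 ± 0.46 (adjusted p = 0.00018). Sox4 and Cdk6, a cell cycle kinase, were lower there by 0.81 ± 0.11 and 0.63 ± 0.10 (adjusted p = 0.000651 and 0.00229), so members of the list moved both ways. Over the list the median log2 fold change was 0.24, against 0.00 over all genes tested.

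Markers of cell types moved with the same groups. The summed level of 14 stem and progenitor markers ran from 1724 to 2405 CPM in the libraries labelled NICD_TCFKO, from 2421 to 3953 CPM in NOTCHWT_TCFKO, from 3275 to 3812 CPM in NICD_TCFWT and from 2061 to 2536 CPM in NOTCHWT_TCFWT, an order of means shared with Hoxa9 except that NICD_TCFKO lay below NOTCHWT_TCFWT. Of these 14, which include Flt3 and Cd34 of the target list, 7 were higher and 2 lower in NICD_TCFWT than in NOTCHWT_TCFWT, beside the same 10.6% and 9.75% of all genes tested. The 14 T lineage markers summed to 722 to 2315 CPM in NICD_TCFKO, 28.0 to 41.2 CPM in NOTCHWT_TCFKO, 32.8 to 43.2 CPM in NICD_TCFWT and 213 to 264 CPM in NOTCHWT_TCFWT. Ptcra was at 0 counts in the libraries labelled NOTCHWT_TCFKO and NICD_TCFWT and Cd3g in those labelled NICD_TCFWT. Both groups with the highest Hoxa9 means had the lowest T lineage sums, but single markers went both ways. Against NOTCHWT_TCFWT, 3 were higher and 4 lower in NOTCHWT_TCFKO, and 2 were higher, Cd4 and Cd247, and 4 lower in NICD_TCFWT, beside 10.8% and 10.5% of all genes tested for NOTCHWT_TCFKO and 10.6% and 9.75% for NICD_TCFWT. Granulocyte and monocyte markers, 12 in all, summed to 413 to 1335, 1620 to 9410, 1717 to 6353 and 108 to 217 CPM in the same order of groups. Their mean sum was lowest in NOTCHWT_TCFWT and next lowest in NICD_TCFKO, as were all 6 Hoxa members, Hoxb3 and Hoxb5. Unlike those genes, the sum had its highest mean in NOTCHWT_TCFKO, at 6158 CPM, against 3638 CPM in NICD_TCFWT. Of 11 tested, 6 were higher and 0 lower in NICD_TCFWT than in NOTCHWT_TCFWT, beside 10.6% and 9.75% of all genes tested. Csf1r had the only negative fold change there, without a call. The 8 macrophage markers summed to 322 to 456 CPM in NOTCHWT_TCFKO and to between 8.69 and 24.6 CPM in each other group, none of them at 0 in a whole group. The part of these markers in the Hox differences was not tested.

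**Figure D5:**
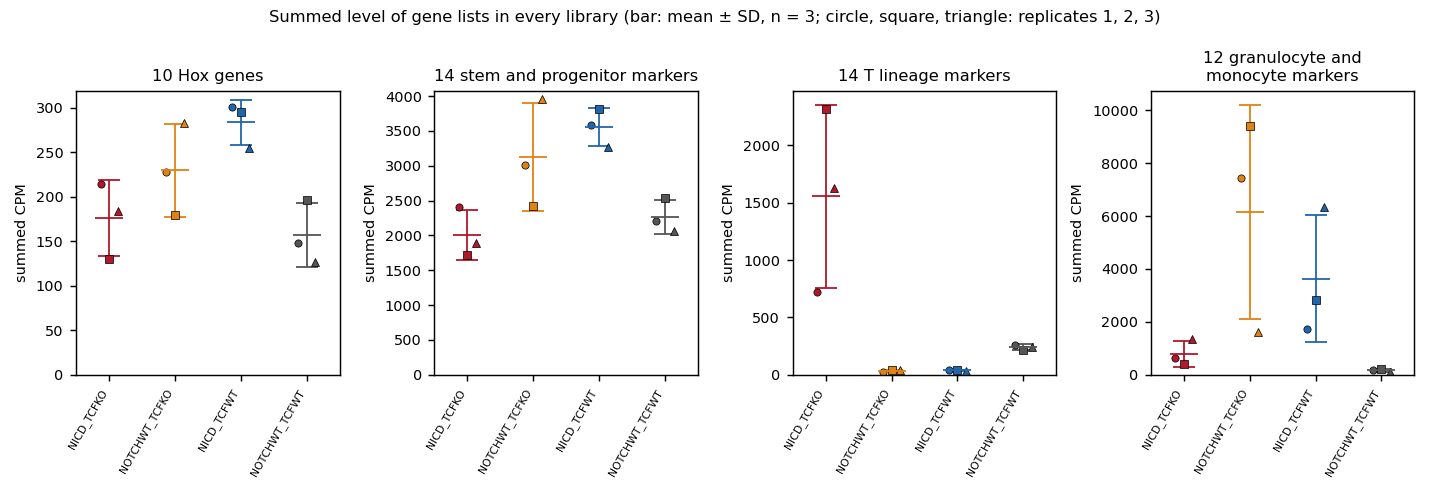
Summed CPM (linear axis) in every library of the 10 Hox genes, 14 stem and progenitor markers, 14 T lineage markers and 12 granulocyte and monocyte markers, by labelled group, with the mean and SD of 3 libraries. The Hox and stem marker sums have their highest means in the libraries labelled NICD_TCFWT, and the T lineage sum is highest in those labelled NICD_TCFKO, at 722 to 2315 CPM.

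Other marker lists differed as well. B lineage markers, 8 in all, summed to 31.2 to 83.1 CPM over all libraries, with Pax5 at 0 counts in the libraries labelled NOTCHWT_TCFWT, and 8 erythroid markers to 33.1 to 1050 CPM. The 8 stromal and endothelial markers summed to 601 to 655 CPM in NICD_TCFKO, 187 to 221 CPM in NOTCHWT_TCFKO, 207 to 263 CPM in NICD_TCFWT and 1003 to 1148 CPM in NOTCHWT_TCFWT. Single markers of this list went both ways. Of 7 tested, 1 was higher (Col1a2) and 2 lower (Pdgfrb and Kdr) in NICD_TCFWT than in NOTCHWT_TCFWT. Over all genes tested, 10.6% were higher and 9.75% lower there. The 8 mast cell and basophil markers summed to 275 to 781 CPM over all libraries. Their part in the Hox differences was not tested.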

How the data were processed

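RNA-seq of sorted LSK cells was made from PicoPure RNA with TruSeq and Nextera XT chemistry, as single-end reads of 75 nt, per the labels' protocols, and all 12 libraries carry batch 1. Per the submitters' processing notes, the tools were HISAT2, limma, featureCounts 1.4.4, cutadapt 1.9.1, bcl2fastq 2.17 and edgeR 3.28.0, with the build mm10; settings are not given in the sources used here. The deposited values used are raw counts per Ensembl gene, made by the authors, in a table equal to the sample files in all 468204 cells. A deposited table of log2 values was not used.

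Symbols and exon lengths came from GENCODE M21. TMM set the library scale, and every CPM value is relative to that scaled total. After filterByExpr by group 16024 genes were tested, holding at least 99.91% of each library's counts. edgeR's quasi-likelihood F test was fitted on all 12 libraries with a mean for each group (edgeR 4.0.16 in R 4.3.3), and the common biological coefficient of variation was 0.299. A gene was called at a Benjamini-Hochberg p under 0.05, adjusted across every tested gene, and the SE was derived as log2 fold change over root F. No label states separate mice. In every group but NOTCHWT_TCFWT, libraries with Ddx3y and at most 1.88 CPM of Xist stood beside libraries with Xist and no Ddx3y. Those groups thus held mice of both sexes, but how many mice each group held is not known. The p-values cover only the spread between these libraries, part of which may be technical. Deviations from group means of same-numbered libraries correlated at 0.314, 0.1001 and 0.451 between NICD_TCFKO and NICD_TCFWT. No other comparison had every such value above a bound of 0.1, which replicate 2 barely exceeded here. Whether the numbers pair these libraries is not known. The labels do not state a source of pairing. The S numbers that end the run names repeat between some libraries, and what they stand for is not given. The code was checked on simulated counts. Alternatives were DESeq2 1.42.0, limma-voom (limma 3.58.1), relative log expression size factors, other filters, fits to each pair alone, a replicate block, leaving out each library and a Ddx3y covariate. The floor for a count of 0 is 3 counts and covers counting error only.

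The members and lists were chosen with earlier results of these data known. Named besides the members were the tested Hox genes, up to 6 genes of each list called in the comparison with most calls, by smallest p, and Meis1, Pbx3, Kmt2a, Men1, Bmi1 and Ezh2. Marker lists of cell types are given as sums and counts in place of that rule's genes. Some genes that this rule names are not reported here.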

Additional observations from a re-analysis of the deposited data

Results flagged for a closer look

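For 5 Hox genes the difference by labelled Tcf7 loss itself differed between libraries labelled NICD and those labelled NOTCHWT, by the interaction test (edgeR quasi-likelihood test, Benjamini-Hochberg adjustment over all genes tested). All 5 were negative, beside 13.5% of all genes tested lower and 13.8% higher. Hoxa10 had an interaction of -4.48 on the log2 scale, with a change of -1.79 between NICD_TCFKO and NICD_TCFWT and of 2.69 between NOTCHWT_TCFKO and NOTCHWT_TCFWT. Hoxb5 had an interaction of -1.86, from changes of -0.93 and 0.93, neither of which passed the test alone. With the Ddx3y covariate the Hoxb5 interaction missed the threshold (adjusted p = 0.0503, same test). Hoxa9 had -1.60, from changes of -0.80 and 0.80, neither of which passed alone. Hoxa3 had -1.54, from changes of -0.88, which passed, and 0.66, which did not. Hoxa5 had the smallest called interaction, -0.86, from changes of -0.36 and 0.50, neither of which passed alone. The Hoxa5 interaction passed in only 8 of 19 alternatives. Tcf7 and the Notch target Dtx1 go against some of the labels in these libraries, so the sign of each interaction follows the labels and not a checked genotype.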

How the results depend on the processing

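No direction reversed under any alternative run for the called members. The Hoxa10 calls for NICD_TCFWT and for NOTCHWT_TCFKO against NOTCHWT_TCFWT, the Hoxb5 call for NICD_TCFWT against NOTCHWT_TCFWT, and the interactions of Hoxa10, Hoxa9 and Hoxa3 held under every alternative. Members higher in NICD_TCFWT than in NOTCHWT_TCFWT numbered 5, with 3 under the replicate block, 3 with the Ddx3y covariate (chosen after seeing the data), and 2 to 5 when 1 library was left out. Over all genes, 1701 were higher there, 1427 under the block, 1387 with the covariate and 1073 to 1946 with 1 library left out. Members lower in NICD_TCFKO than in NICD_TCFWT numbered 2, with 1 under no filter on low counts, 1 under the block, 1 with the covariate and 0 to 2 with 1 library left out. Over all genes, 825 were lower there, 688 without the filter, 649 under the block and 866 with the covariate. Leaving out 1 library gave 332 to 1225. Members higher in NOTCHWT_TCFKO than in NOTCHWT_TCFWT numbered 1, with 2 under relative log expression size factors, 2 under the 1 CPM minimum in 3 or more libraries, 3 by DESeq2, 2 by limma-voom and 1 to 3 with 1 library left out. Over all genes, 1738 were higher there, 1787 under those size factors, 1630 under that minimum, 2279 by DESeq2 and 1558 by limma-voom. The range with 1 library left out was 1118 to 1993. Members lower in NICD_TCFKO than in NOTCHWT_TCFKO numbered 0, with 1 by DESeq2, 1 by limma-voom, 1 with the covariate and 0 to 1 with 1 library left out. Over all genes, 1292 were lower there, 1959 by DESeq2, 1421 by limma-voom and 1664 with the covariate. With 1 library left out they numbered 649 to 1516. For NICD_TCFKO against NOTCHWT_TCFWT, DESeq2 called 1 higher and 1 lower in place of 0, and leaving out 1 library gave 0 to 1 higher. The 5 interactions became 3 with the covariate and 4 to 6 with 1 library left out, with 4 under the block. Over all genes, 2170 passed as negative, 2004 with the covariate, 1971 under the block and 1774 to 2436 with 1 library left out. Over all groups, the correlations between same-numbered libraries ran from -0.40 to 0.45 and 6 of 12 libraries correlated best with their own number. NICD_TCFKO against NICD_TCFWT was the only comparison in which every same-numbered pair exceeded 0.1. The block also changed counts elsewhere, such as from 5 to 3 members higher in NICD_TCFWT than in NOTCHWT_TCFWT. The cause of these shifts was not tested. Member counts ran from 23 to 5635 per library.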
